A study of Caenorhabditis elegans with 8 samples.

Results

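The 86 genes described here had no symbol in the array design, stood above wildtype in *age-1(mg44)* animals, and were lower on every array of the strains in which *age-1* expression was restored in a single tissue. They were chosen by their measured values on all 8 arrays. A gene was kept when its log2 ratio of strain to wildtype was at least 1 on both *age-1(mg44)* arrays, when all 6 restored arrays lay at least 0.3 below the lower of those values, and when the strain signal was well above background on both *age-1(mg44)* arrays. The rule kept 86 of 12470 unnamed genes, or 0.69%, out of 19441 genes on the array. It did not use which of the 6 restored arrays belonged to which strain.

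On each array, Cy3 marked the RNA of a strain and Cy5 marked wildtype N2 RNA, and the dyes were never exchanged. CY262 carried *sqt-1(sc13) age-1(mg44)* and the transgene *bvIs1*, which directs *age-1* expression to the intestine (3 arrays). CY251 carried the same mutations and *bvIs2*, which directs *age-1* expression to neurons (3 arrays). The *age-1(mg44)* animals were homozygotes without zygotic *age-1* that descended from heterozygous mothers and so still had maternal product (2 arrays). Wildtype animals were N2, of a like or slightly later stage. All animals were hermaphrodites synchronised as starved first-stage larvae, then fed for 72 h at 20°C until late L4 or young adult. Each restored strain was a single transgenic line, and a mutation in *sqt-1*, a cuticle collagen gene, was linked to *age-1(mg44)* in the strains. The 3 wildtype replicates may have been used on more than 1 array each, which the sources do not settle, and p-values then measure only the spread between these arrays.

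*age-1* encodes the catalytic subunit of the phosphoinositide 3-kinase that acts below the insulin receptor DAF-2. When the pathway is active, the AKT kinases keep the FOXO transcription factor DAF-16 out of the nucleus. When it is reduced, DAF-16 enters the nucleus, larvae can arrest as dauers, adults live longer, and genes for stress resistance, detoxification, fat metabolism and innate immunity are expressed more strongly. The question behind the comparison of CY262, CY251 and *age-1(mg44)* was which of these genes respond to *age-1* activity in another tissue.

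The records conflict on which restored array is which, so the arrays are given first as recorded. The file recorded for CY262 replicate 2 is named for neurons, and the file recorded for CY251 replicate 2 is named for the intestine. In the deposited table of values, the column of CY251 replicate 3 equals the scanner ratios recorded for CY262 replicate 2 at 100% of its spots, within 1e-05. The column of CY262 replicate 2 equals the scanner ratios recorded for CY251 replicate 2. The columns of CY251 replicate 2 and CY262 replicate 3 equal the scanner ratios recorded for CY262 replicate 3 and CY251 replicate 3. For each of these 4 arrays, at most 0.107% of the ratios equal those in the column of its own name. Results that depend on the strain are therefore given with arrays as recorded, with arrays by file name and with arrays by the value table. CY262 replicate 2, as recorded, was also scanned on another day than the other 7 arrays.

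Other facts of the arrays bear on all members alike. The transcript of *age-1* itself read between -1.71 and -1.03 on the CY262 arrays, between -1.88 and -1.05 on the CY251 arrays and at -1.06 and -1.64 on the *age-1(mg44)* arrays, as loess-normalized log2 ratios to wildtype. No member was in any list of cell type markers, but members had to lack a symbol in the array design, so nothing is read from that. The median of 8 sperm markers lay between 1.11 and 3.7 on the 6 restored arrays, against 1.98 and 1.61 on the *age-1(mg44)* arrays. The median of 12 oocyte and yolk markers lay between -1.33 and -0.06 on the restored arrays, against -1.13 and -1.78 on the *age-1(mg44)* arrays. The median of 4 body wall muscle markers lay between 0.75 and 2.18 on the restored arrays, against 0.87 and -0.36 on the *age-1(mg44)* arrays. The medians of 8 intestine, 8 neuron and 6 hypodermis and cuticle markers ran from 1.12 to 1.92, from 0.27 to 0.70 and from 0.71 to 2.39 on the restored arrays. On the *age-1(mg44)* arrays they were 1.11 and 1.80 for intestine, 0.23 and 0.43 for neuron and 1.06 and 0.98 for hypodermis and cuticle. The medians varied from array to array, and their part in the member values was not tested. In whole animals, fewer cells of a type and less RNA per cell cannot be told apart.

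Of the 86 members, 84 had a sequence name and 2 were probes without one. The RefSeq gene table of assembly WBcel235 matched 82 of them and gives 50 a symbol today, although the array design gave none. A role from the array description or the gene family was assigned to 49 members in 9 groups. The other 37 were left without one, although a function is described for some of them, such as *mlt-3*. One member, ZK1025.5, is annotated as a pseudogene. No member had a second probe and none was saturated, so each gene rests on 1 probe, and levels are not compared between genes. The M of the text is the log2 ratio of the processed strain signal to the processed wildtype signal, less the median of its array.

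Over the members, the mean M on the *age-1(mg44)* arrays ran from 1.04 to 5.86 with a median of 2.11, and the mean on the 6 restored arrays ran from -1.04 to 3.72 with a median of 0.76. These values chose the members and are a description. The members' median was 0.63, 0.77 and 0.95 on the CY262 arrays, 0.86, 0.81 and 0.63 on the CY251 arrays, and 2.07 and 2.19 on the *age-1(mg44)* arrays. The other unnamed genes that were raised in *age-1(mg44)* had medians between 1.74 and 2.57 on the restored arrays, against 2.03 and 2.23 on the *age-1(mg44)* arrays. The typical raised unnamed gene was thus about as high on the restored arrays as in *age-1(mg44)*, and the members were the exception by choice.

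**Figure D1:**
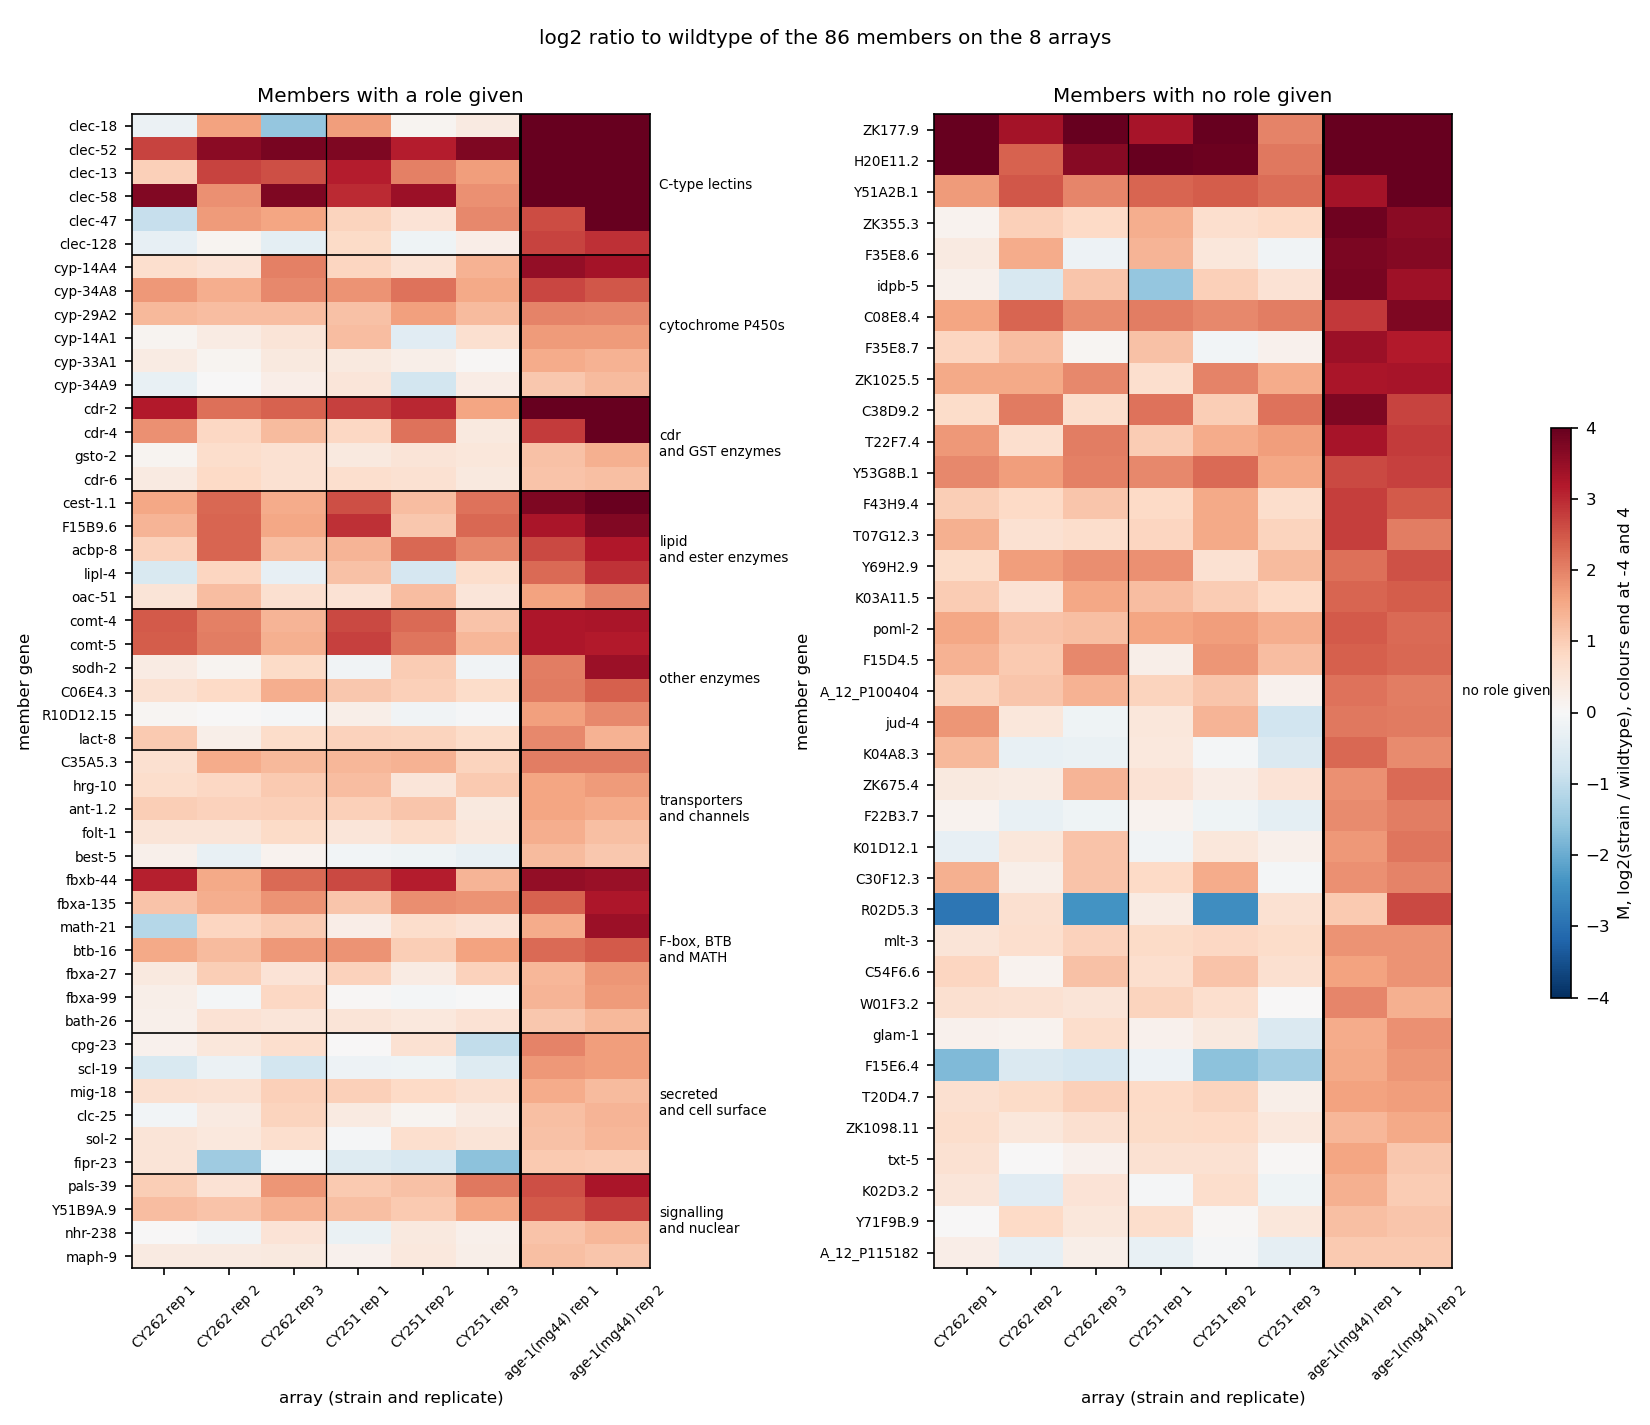
M, the log2 ratio of strain to wildtype, of each of the 86 members (rows, by role and then by mean M in *age-1(mg44)*) on the 8 arrays (columns, CY262 and CY251 as recorded, then *age-1(mg44)*). The *age-1(mg44)* columns are red in every row, and the restored columns run from dark red for ZK177.9 and H20E11.2 to blue for *scl-19* and F15E6.4.

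The return toward wildtype was partial for most members. On all 6 restored arrays 56 members stayed above 0, which is the level of wildtype, 28 were above 0 on 1 to 5 of them, and 2 were at or below 0 on all 6. M stayed at 1 or more on all 6 restored arrays for 18 members and under 1 on all 6 for 31. The difference of the restored mean from the *age-1(mg44)* mean had a median of -1.30 and ran from -5.53 to -0.60. The lowest of these is that of *clec-18*, whose signal was dim in wildtype and on most restored arrays, and whose loess difference was -2.76. The distance between the lower *age-1(mg44)* array and the highest restored array had a median of 0.56 and ran from 0.30 to 4.12.

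The thresholds cut through a continuum. Among 1497 unnamed genes that were raised and above background on both *age-1(mg44)* arrays, 1315 were higher on at least 1 restored array than on the lower *age-1(mg44)* array. The other 182 were lower on all 6, and 96 of those missed the distance of 0.3. Just inside the distance were *acbp-8* at 0.301, *cyp-34A8* at 0.303 and *cyp-29A2* at 0.307, and just outside were F41E7.6 at 0.271, Y105C5B.14 at 0.268 and T20F7.7 at 0.263. Just inside the rise were *fipr-23* at 1.01, K02D3.2 at 1.02 and the unnamed probe A_12_P115182 at 1.04, and just outside were W05E10.2 at 0.99, T20B3.14 at 0.97 and Y82E9BL.7 at 0.96. Both thresholds without the background condition were met by 97 unnamed genes. Of 6971 genes that had a symbol, 19 met the full rule, or 0.273%. Members were 5.74% of the raised unnamed genes, and those 19 were 3.08% of the 617 raised genes with a symbol.

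**Figure D2:**
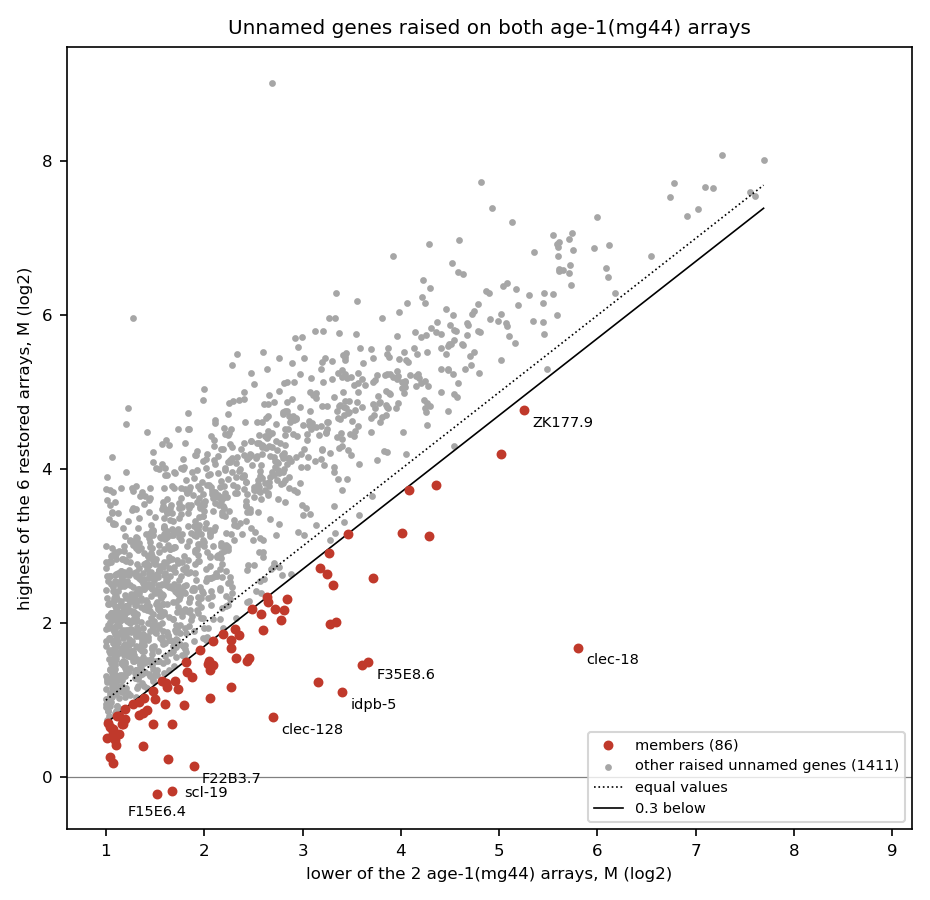
The highest M on the 6 restored arrays (y axis, log2) against the lower M of the 2 *age-1(mg44)* arrays (x axis, log2) for 1497 raised unnamed genes, with the 86 members in red. The red points begin at the solid line 0.3 below equality, their median distance is 0.56, and *clec-18* lies farthest from it at 4.12 below its lower *age-1(mg44)* value.

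C-type lectin genes, which encode secreted or membrane proteins with a sugar-binding type of fold and of which many respond to bacterial infection, gave 6 members. The widest separation of all members was that of *clec-18* (F56H6.8). Its M was -0.22, 1.62 and -1.56 on the CY262 arrays, 1.68, 0.09 and 0.35 on the CY251 arrays, and 5.81 and 5.91 on the *age-1(mg44)* arrays. All restored values lay near or under 1.68, whereas both *age-1(mg44)* values were close together. The wildtype signal of *clec-18* was not well above background on any of the 8 arrays, so its measured ratios to wildtype are imprecise. From the normalized signals *age-1(mg44)* exceeded CY251 at least 5.20-fold and wildtype at least 5.99-fold. Such bounds use the brightness of the dimmest well-detected probes and may carry dye bias, because no dye swap was made.

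Another lectin, *clec-128* (W10G11.6), was detected in wildtype on all 8 arrays. Its M was -0.32, 0.12 and -0.38 in CY262, 0.78, -0.18 and 0.27 in CY251, and 2.70 and 2.92 in *age-1(mg44)*. The restored values spanned both sides of the wildtype level. *clec-13* (H16D19.1) kept part of its rise, with M of 0.96, 2.71 and 2.57 in CY262, 3.13, 2.02 and 1.68 in CY251, and 4.28 and 4.55 in *age-1(mg44)*. For *clec-52* (B0218.8) M was 2.72, 3.61 and 3.79 in CY262, 3.75, 3.13 and 3.73 in CY251, and 4.36 and 4.91 in *age-1(mg44)*. Its restored values thus stayed far above wildtype. The 2 remaining lectins, *clec-58* and *clec-47*, had restored means of 2.91 and 0.95 and *age-1(mg44)* means of 4.31 and 3.56. The values of *clec-47* in *age-1(mg44)* were 2.60 and 4.53, which differ widely from each other.

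Detoxification genes made up 2 groups. Cytochrome P450 enzymes, which oxidise fatty acids, sterols and foreign compounds, gave 6 members with a median of 0.70 over their restored means and 1.84 over their *age-1(mg44)* means. The highest in *age-1(mg44)* was *cyp-14A4* (R04D3.1), whose M was 0.66, 0.54 and 2.01 in CY262, 0.85, 0.58 and 1.4 in CY251, and 3.52 and 3.34 in *age-1(mg44)*. CY262 replicate 3 was its highest restored array. Closest to the wildtype level was *cyp-34A9*, with restored values from -0.72 to 0.48 and *age-1(mg44)* values of 1.09 and 1.27. *cyp-33A1* was steadier, with restored values from 0.04 to 0.40 and *age-1(mg44)* values of 1.48 and 1.38.

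The cadmium-responsive genes *cdr-2*, *cdr-4* and *cdr-6*, whose products resemble glutathione S-transferases, were members together with *gsto-2*, an omega-class glutathione S-transferase. For *cdr-2* (C54D10.1) M was 3.17, 2.22 and 2.35 in CY262, 2.72, 3.02 and 1.57 in CY251, and 4.02 and 4.1 in *age-1(mg44)*. *cdr-4* (K01D12.11) read 1.82, 0.82 and 1.27 in CY262, 0.83, 2.17 and 0.40 in CY251, and 2.81 and 4.19 in *age-1(mg44)*. The rise of *cdr-6* and *gsto-2* was smaller, with *age-1(mg44)* means of 1.17 and 1.31 and restored means of 0.57 and 0.47. All 4 genes stayed above 0 on all 6 restored arrays.

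Lipid and ester enzymes gave 5 members. *lipl-4* (K04A8.5), a lysosomal lipase known for extending lifespan when overexpressed, read -0.62, 0.86 and -0.34 in CY262, 1.18, -0.68 and 0.71 in CY251, and 2.28 and 2.89 in *age-1(mg44)*. Its restored values fell into 3 below wildtype and 3 above. The carboxylesterase *cest-1.1* (T02B5.1) read 1.56, 2.3 and 1.5 in CY262, 2.59, 1.22 and 2.18 in CY251, and 3.72 and 3.96 in *age-1(mg44)*. The phospholipase A2 gene F15B9.6 had a restored mean of 1.92 and an *age-1(mg44)* mean of 3.50, the acyl-CoA-binding protein gene *acbp-8* had 1.67 and 2.92, and the acyltransferase gene *oac-51* had 0.78 and 1.80. The *oac-51* signal was not well above background on any CY251 array, and its wildtype signal was on only 1 array. Its M is thus imprecise, and its loess rise in *age-1(mg44)* was 0.28.

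Of 6 other enzymes, *comt-4* and *comt-5*, of the catechol O-methyltransferase family, moved almost in parallel. *comt-4* read 2.44, 2.00 and 1.37 in CY262, 2.64, 2.26 and 1.14 in CY251, and 3.25 and 3.26 in *age-1(mg44)*. *comt-5* read 2.41, 2.05 and 1.43 in CY262, 2.72, 2.15 and 1.33 in CY251, and 3.24 and 3.18 in *age-1(mg44)*. The array with the lowest *comt-4* value also had the lowest *comt-5* value. *sodh-2* (K12G11.4), described as an alcohol dehydrogenase, read 0.32, 0.11 and 0.77 in CY262, -0.14, 1.02 and -0.13 in CY251, and 2.06 and 3.41 in *age-1(mg44)*. The gene described as a chitinase, R10D12.15, lay at the wildtype level on all restored arrays, with 0.07, 0.03 and -0.03 in CY262, 0.23, -0.15 and -0.05 in CY251, and 1.64 and 1.92 in *age-1(mg44)*. The dehydrogenase gene C06E4.3 and *lact-8*, of the beta-lactamase family, had restored means of 0.93 and 0.76 and *age-1(mg44)* means of 2.23 and 1.65.

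Transporter and channel genes showed the smallest drop of the 9 groups with a stated role, with a median of -0.75 for the restored mean less the *age-1(mg44)* mean. They were the folate transporter *folt-1*, the mitochondrial ADP/ATP carrier *ant-1.2*, the bestrophin channel *best-5*, the heme-responsive gene *hrg-10* and C35A5.3, described as a sodium/phosphate transporter. Their restored means ran from -0.09 for *best-5* to 1.16 for C35A5.3, and their *age-1(mg44)* means ran from 1.17 to 2.05 for the same genes. No member of this group stayed at 1 or more on all 6 restored arrays.

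F-box, BTB and MATH domain proteins, many of which bring substrates to ubiquitin ligases, gave 7 members. *fbxb-44* (K05F6.5) kept the most, with M of 3.12, 1.5 and 2.26 in CY262, 2.64, 3.15 and 1.37 in CY251, and 3.52 and 3.46 in *age-1(mg44)*. *math-21* varied widely, from -1.14 to 1.02 on the restored arrays and at 1.49 and 3.44 on the *age-1(mg44)* arrays. The wildtype signal of *math-21* was well above background on only 3 arrays, so its M is imprecise. Its loess rise in *age-1(mg44)* was 0.93. The restored means of *fbxa-135*, *btb-16*, *fbxa-27*, *bath-26* and *fbxa-99* were 1.52, 1.48, 0.68, 0.46 and 0.16, and their *age-1(mg44)* means were 2.80, 2.36, 1.55, 1.18 and 1.54.

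The 6 secreted and cell surface members had the lowest restored levels of the 9 groups, with a median of 0.24 over their restored means and 1.33 over their *age-1(mg44)* means. *scl-19* (ZK384.1), a secreted protein of the cysteine-rich SCP family, was below wildtype on all restored arrays, with -0.61, -0.25 and -0.72 in CY262, -0.19, -0.18 and -0.53 in CY251, and 1.74 and 1.67 in *age-1(mg44)*. *fipr-23*, related to antifungal peptides of the epidermis, read 0.51, -1.42 and -0.07 in CY262, -0.51, -0.64 and -1.65 in CY251, and 1.06 and 1.01 in *age-1(mg44)*. The claudin-like gene *clc-25*, the glutamate receptor auxiliary gene *sol-2*, the chondroitin proteoglycan gene *cpg-23* and *mig-18*, which is needed for gonad shape, had restored means of 0.32, 0.46, 0.16 and 0.76. For *cpg-23* neither wildtype on any array nor the strain on any restored array was well above background, which bounds its rise over wildtype at 1.18-fold or more.

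The 4 signalling and nuclear members were the nuclear hormone receptor *nhr-238*, the kinase gene Y51B9A.9, the microtubule-associated *maph-9* and *pals-39*, of a family linked to defence against intracellular pathogens. *pals-39* (C54D10.7) read 0.98, 0.58 and 1.76 in CY262, 1.05, 1.17 and 2.12 in CY251, and 2.58 and 3.26 in *age-1(mg44)*. Y51B9A.9 read between 1.04 and 1.55 on the restored arrays, against 2.45 and 2.77 on the *age-1(mg44)* arrays. *maph-9* and *nhr-238* had restored means of 0.33 and 0.13 and *age-1(mg44)* means of 1.16 and 1.23.

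Among the 37 members without a stated role were both the highest and the lowest restored values. ZK177.9 read 4.35, 3.34 and 4.58 in CY262, 3.30, 4.77 and 1.97 in CY251, and 5.25 and 5.74 in *age-1(mg44)*. H20E11.2 read 4.19, 2.35 and 3.65 in CY262, 3.98, 3.92 and 2.11 in CY251, and 5.7 and 5.02 in *age-1(mg44)*. H20E11.2 thus stayed far above wildtype on every restored array. The wildtype signal of ZK177.9 was well above background on only 1 array, so its M is imprecise. On CY251 replicate 3 its normalized log2 signals were 6.23 for the strain and 5.92 for wildtype, and its loess rise in *age-1(mg44)* was 2.92. F15E6.4 read -1.77, -0.57 and -0.67 in CY262, -0.21, -1.65 and -1.36 in CY251, and 1.52 and 1.75 in *age-1(mg44)*. It was raised over wildtype in *age-1(mg44)* and lower than wildtype on all 6 restored arrays.

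ZK355.3 read 0.14, 0.95 and 0.78 in CY262, 1.46, 0.66 and 0.81 in CY251, and 3.88 and 3.61 in *age-1(mg44)*. F22B3.7 read 0.13, -0.28 and -0.18 in CY262, 0.15, -0.17 and -0.39 in CY251, and 1.89 and 2.04 in *age-1(mg44)*. In both genes the *age-1(mg44)* arrays stood apart from the restored arrays, whose SD was 0.43 for ZK355.3 and 0.22 for F22B3.7. *idpb-5* (R13H4.8) was more scattered, with 0.19, -0.63 and 1.11 in CY262, -1.55, 0.95 and 0.57 in CY251, and 3.80 and 3.40 in *age-1(mg44)*. Its wildtype signal was well above background on only 1 array and its CY251 signal on none, and its rise over CY251 was at least 1.90-fold. Y51A2B.1, which the RefSeq table did not match, had a restored mean of 2.19 and an *age-1(mg44)* mean of 3.87. The molting gene *mlt-3* and *poml-2*, related to paraoxonases and MEC-6, had restored means of 0.74 and 1.44 and *age-1(mg44)* means of 1.79 and 2.36.

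**Figure D3:**
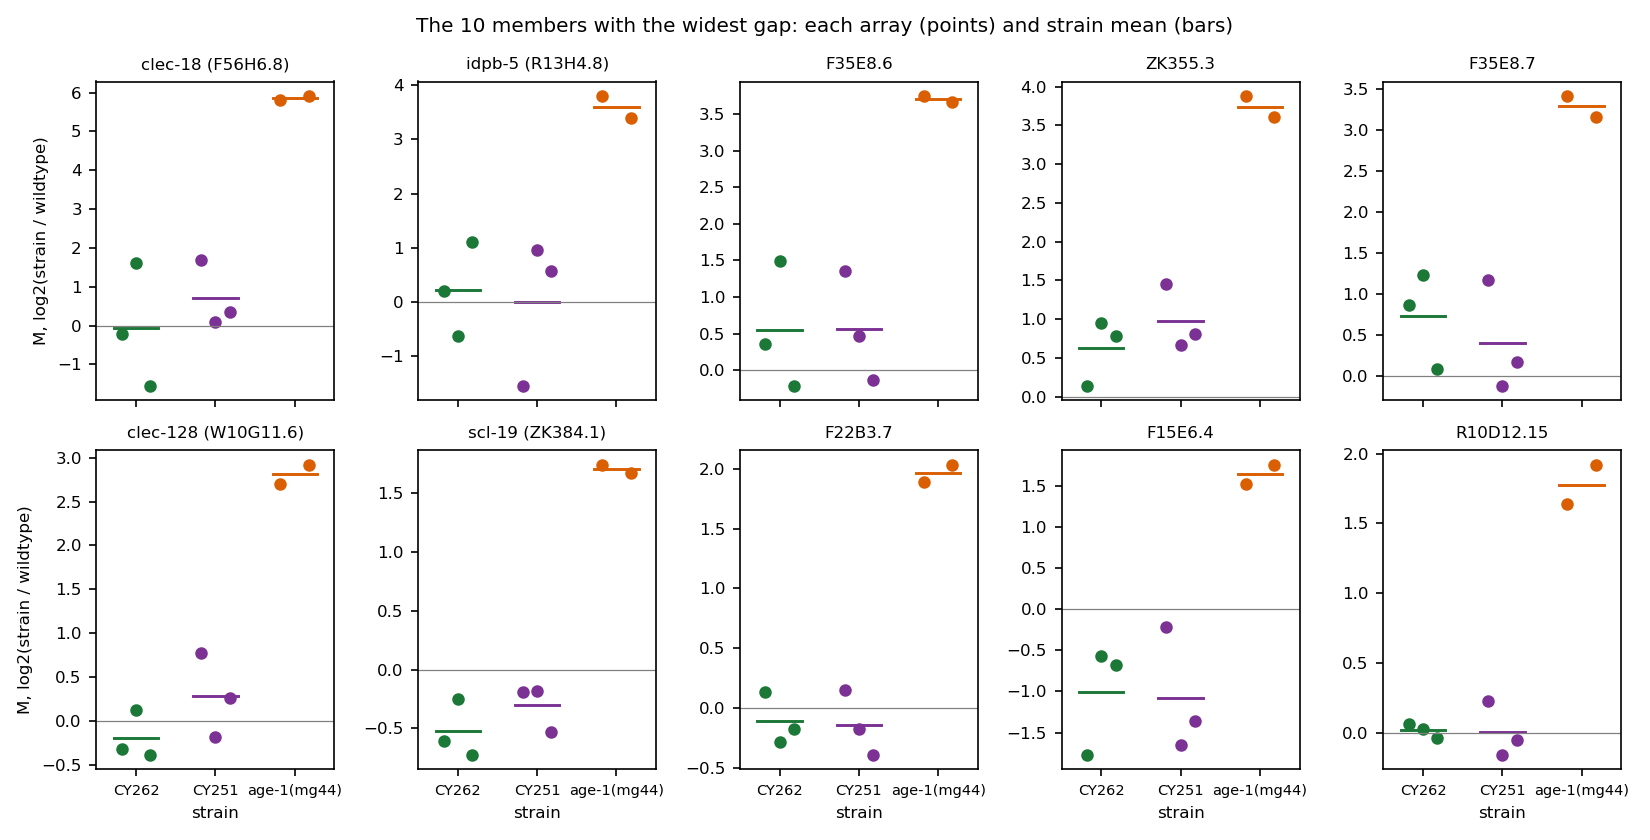
M (y axis, log2 ratio of strain to wildtype) on each array for the 10 members with the widest distance between the lower *age-1(mg44)* array and the highest restored array, with points for arrays and bars for the mean of each strain. The *age-1(mg44)* points lie between 1.52 and 5.91 and every restored point lies at or under 1.68, with *scl-19* and F15E6.4 under 0 in both CY262 and CY251.

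Dim signals inflate M. Wildtype was well above background on all 8 arrays for 68 members, on 1 to 7 arrays for 12 and on none for 6. The strain signal was well above background on all 6 restored arrays for 73 members, on 1 to 5 for 11 and on none for 2. The F35E8.6 probe read 1.35 or less on the CY251 arrays and 3.75 and 3.67 on the *age-1(mg44)* arrays. The adjacent gene F35E8.7 read 0.86, 1.23 and 0.09 in CY262, 1.17, -0.12 and 0.18 in CY251, and 3.41 and 3.16 in *age-1(mg44)*. The wildtype signal of F35E8.7 was well above background on only 2 arrays, and its loess rise in *age-1(mg44)* was 1.25. For F35E8.6, whose wildtype signal was not well above background on any of the 8 arrays, the bound on its rise over wildtype was 1.80-fold. The bounds for ZK1025.5, K04A8.3, *jud-4* and *cpg-23* were 1.73, 1.21, 1.20 and 1.18-fold.

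By the medians over members, the drop lay mainly in the strain channel. After normalization, the strain signal of the members on the restored arrays differed from that on the *age-1(mg44)* arrays by a median of -0.82 on the log2 scale and was lower for 86 of 86. Their wildtype signal differed between the same arrays by a median of 0.12 and was higher for 74 and lower for 12. Over all probes the medians were 0.01 and -0.01. These values come from the arrays that chose the members. For *clec-18* the strain signal differed by -2.54 and the wildtype signal by 0.22, and for F15E6.4 by -2.35 and 0.24. In some members the wildtype signal differed more than the strain signal. The strain and wildtype differences were -0.12 and 0.31 for *mig-18*, -0.31 and 0.35 for C30F12.3, and -0.03 and 0.16 for A_12_P115182.

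In limma, with adjustment over all genes, 81 of the 86 members passed as raised in *age-1(mg44)* over wildtype, against 11.5% of all genes, and nothing is read from that count because the rule used the contrast. By file name the count was 82 against 15.2% of all genes. As recorded it was 51 without *age-1(mg44)* replicate 1 and 34 without *age-1(mg44)* replicate 2. The 5 members not called were *fipr-23*, A_12_P115182, K04A8.3, *jud-4* and R02D5.3. The rule also used the drop on the restored arrays, so the counts of members lower there, and their excess over all genes, follow from the choice of members and are given as a description. With the 6 restored arrays pooled against *age-1(mg44)*, limma called 5 genes of the whole array lower, 0.0257% of those tested, and all 5 were members. They were *clec-18* at -2.76 ± 0.14 (SE), *clec-128* at -2.02 ± 0.16, ZK355.3 at -1.62 ± 0.12, R10D12.15 at -1.29 ± 0.10 and *scl-19* at -1.26 ± 0.09, as loess log2 differences. The count of members called was 4 without CY251 replicate 1, 1 without CY262 replicate 2 and 0 without any other array. It was also 0 with the replicate number as a block, with the processed signal and with median centring. At an unadjusted p under 0.05, 81 members were lower, against 4.27% of all genes. With arrays by file name the count was 17 of 86 against 0.124% of all genes, and with arrays by the value table it was 6 of 86 against 0.0309%. At an unadjusted p under 0.05, 83 were lower by file name, against 5.59%, and 80 by the value table, against 4.6%. Strain by strain, 5 members were lower in CY262 than in *age-1(mg44)* as recorded, against 0.0257% of all genes, and 1 was lower in CY251, against 0.00515%. By file name they were 8 for CY262, against 0.0515%, and 19 for CY251, against 0.232%. By the value table they were 4 for each strain, against 0.0206% for each. Both strains were set against the same *age-1(mg44)* arrays.

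For the comparison of CY262 with CY251, the rule did not use which restored array belonged to which strain. It did require all 6 restored arrays to be lower, so a gene lowered in CY262 alone or CY251 alone could not be a member. The choice thus limits the differences that members could show. With arrays as recorded, limma called 0 of 86 members at an adjusted p under 0.05, where the background was 0% of 19437 genes tested. At an unadjusted p under 0.05 it called 0 members, against 0.797% of all genes. The t-test of the methods, applied here to loess log ratios and not to signal intensities, gave 1 member before adjustment and 0 after it. The median of CY262 minus CY251 was -0.01 over the members and -0.01 over all genes, and single members ran from -0.84 to 0.56. CY262 was the lower strain for 45 of 86 members, against 56.1% of all genes. Of 82 members with a value on all 6 arrays, 0 lay lower in CY262 without overlap, against 2.47% of all genes, and 1 lay higher, against 1.05%. Leaving out 1 array gave 0 to 3 members at an unadjusted p under 0.05, with 3 without CY251 replicate 2, 2 without CY262 replicate 1 or CY262 replicate 2, and 1 without CY262 replicate 3 or CY251 replicate 1. The 5 members with the widest recorded differences were R02D5.3 at -0.84 ± 0.95 (SE), ZK177.9 at 0.56 ± 0.39, *cdr-2* at 0.46 ± 0.39, *clec-58* at 0.46 ± 0.48 and C38D9.2 at -0.38 ± 0.46. Their unadjusted p in limma ran from 0.197 to 0.434. In simulated data, limma recovered 87% of 4-fold differences between CY262 and CY251. The simulation used independent arrays, certain strain labels and genes drawn from the whole array. The real labels conflict and the real arrays deviated together, so that share may not hold for the members. Differences of that size or smaller may not have been detectable with 3 arrays each.

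With arrays by file name, limma again called 0 of 86 members after adjustment, against 0.149% of all genes, and the lowest adjusted p of a member was 0.0809. At an unadjusted p under 0.05, 22 members passed, 9 lower and 13 higher in CY262. Over all genes 10.3% passed, 5.82% lower and 4.48% higher. The members' median difference was 0.06, against -0.02 over all genes, and single members ran from -2.38 to 1.23. CY262 was lower for 34 of 86, against 57.7% of all genes, and 7 differed by 1 or more either way, against 3.33%. Of 82 members with a value on all 6 arrays, 11 were lower in CY262 than in CY251 without overlap and 14 were higher without overlap, where 8.52% and 5.42% of all genes did so.

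With arrays by the value table, 0 of 86 members were called after adjustment, against 0% of all genes, and 5 passed at an unadjusted p under 0.05, against 1.41%. Of the 5, 4 were lower in CY262, against 0.252% of all genes, and 1 was higher, against 1.16%. CY262 was lower for 54 of 86, against 45.6%. Without overlap, 6 of 82 were lower, against 1.3%, and 1 was higher, against 2.03%. By 1 or more, 1 member differed, against 0.751%. The lowest member was F15E6.4, at -1.05 ± 0.15 (SE), then *clec-13* at -0.98 ± 0.21. The members' median difference was -0.09, against 0.01 over all genes. Without a replicate block, no assignment of the arrays gave a member past the adjusted threshold, and which members stood lowest and highest changed with the assignment.

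**Figure D4:**
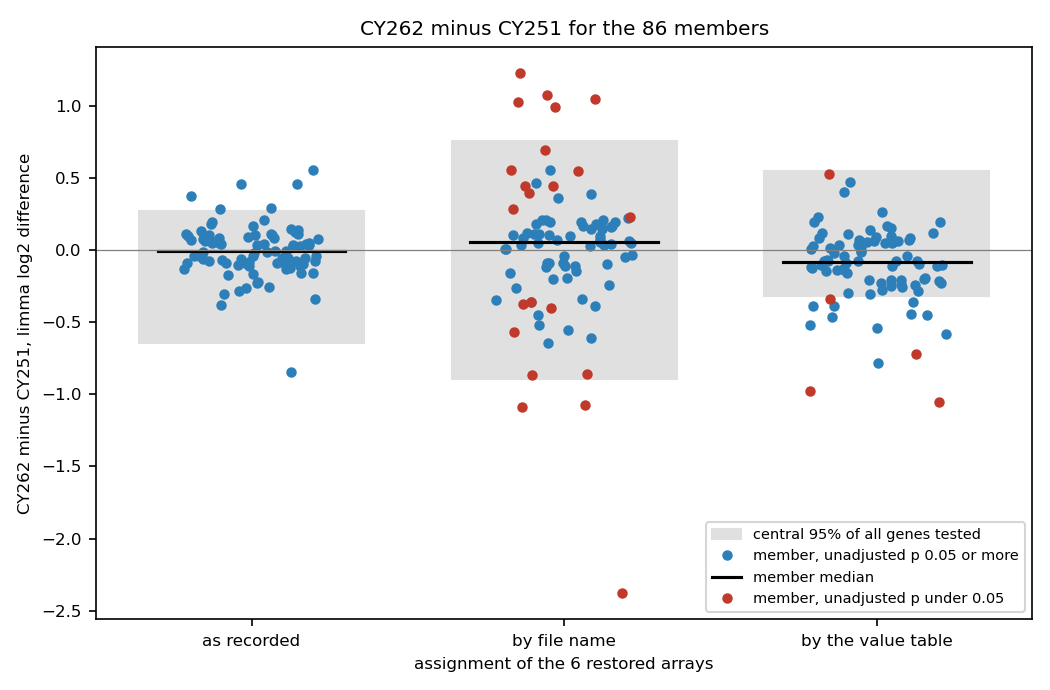
The limma log2 difference CY262 minus CY251 (y axis) of each of the 86 members under the 3 assignments of the restored arrays, with the central 95% of all genes tested as a grey band and the member median as a black bar. Members lie between -0.84 and 0.56 with arrays as recorded, between -2.38 and 1.23 by file name, and between -1.05 and 0.52 by the value table, with red for an unadjusted p under 0.05.

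The clearest split among the restored arrays was that of R02D5.3, a gene without a stated role. It read -2.91, 0.65 and -2.40 in CY262, 0.32, -2.48 and 0.62 in CY251, and 1.04 and 2.63 in *age-1(mg44)*, in the recorded order of replicates 1 to 3. The 3 arrays whose files are named for the intestine were at -2.40 or less, and the 3 named for neurons were at 0.32 or more. Its CY262 minus CY251 difference was -0.84 as recorded and -2.38 ± 0.37 (SE) by file name, with limma's adjusted p of 0.103 by file name. With the replicate number added as a block, an alternative chosen after seeing the data, limma's adjusted p by file name was 0.0229 for R02D5.3 and 0.0471 for *clec-58*.

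Other members with wide differences by file name mostly split along the same line. C38D9.2 read 0.75, 2.09 and 0.71 in CY262, 2.17, 0.99 and 2.18 in CY251, and 3.75 and 2.72 in *age-1(mg44)*. By file name its difference was -1.09 ± 0.22 (SE). *lipl-4*, *cest-1.1* and F15B9.6 gave -0.86 ± 0.13, -0.87 ± 0.15 and -1.07 ± 0.17, with the intestine-named arrays lower in each. The remaining lipid and ester members, *acbp-8* and *oac-51*, gave -0.36 ± 0.41 and -0.04 ± 0.09. In the other direction, *clec-58* read 3.7, 1.83 and 3.73 in CY262, 2.98, 3.41 and 1.84 in CY251, and 4.54 and 4.08 in *age-1(mg44)*, for a difference of 1.23 ± 0.18. ZK177.9 and *cdr-4* gave 1.03 ± 0.19 and 1.04 ± 0.38, again without overlap. H20E11.2 and *fbxb-44* gave 1.07 ± 0.45 and 0.99 ± 0.34, but their intestine-named and neuron-named arrays overlapped. Apart from *acbp-8* and *oac-51*, these are the 10 members with the widest differences by file name, R02D5.3 included, and were chosen after their values were seen.

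**Figure D5:**
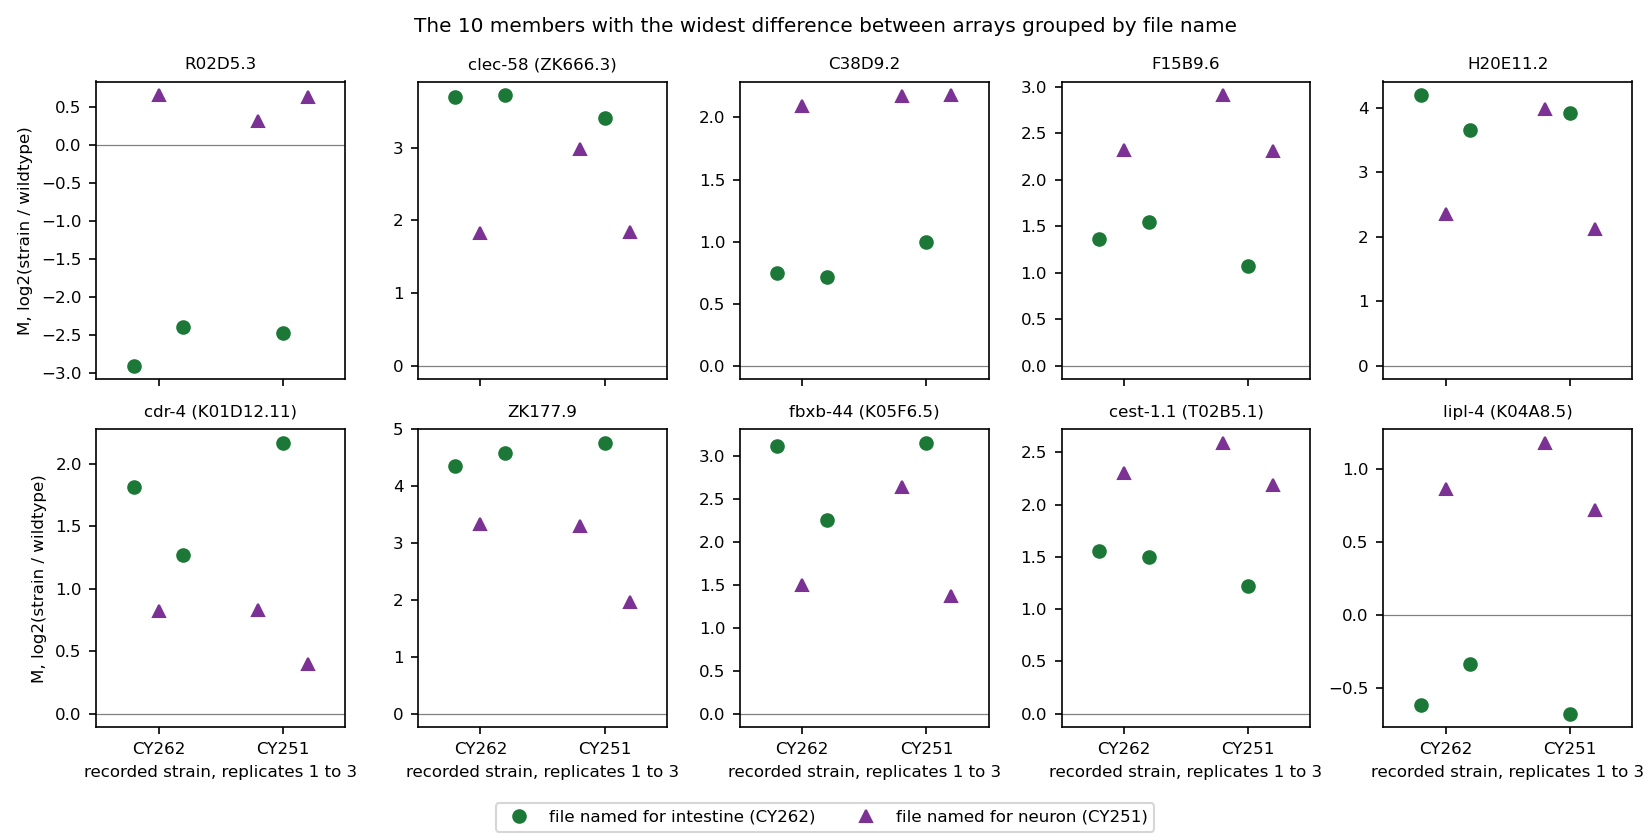
M (y axis, log2 ratio of strain to wildtype) on each restored array for the 10 members with the widest difference by file name, placed by the recorded strain (x axis, replicates 1 to 3) and marked by the tissue in the file name. For R02D5.3 the 3 intestine-named circles lie at or under -2.40 and the 3 neuron-named triangles at or above 0.32, and the replicate 2 arrays stand on the other strain's side.

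The restored arrays were also compared by how they deviated together. When each member was taken as its deviation from its own mean over the 6 arrays, the correlation between arrays across the 86 members was 0.08 to 0.54 for the 6 pairs of arrays with the same tissue in the file name. It was -0.72 to -0.15 for the 9 pairs with different tissues. Over all 19135 genes with a loess log ratio on the 6 arrays the ranges overlapped. They were -0.37 to 0.43 for pairs of the same tissue and -0.79 to 0.49 for pairs of different tissues. Only 82 of the 86 members had a loess log ratio on all 6 arrays, so values over members and over all genes may rest on different measures. Whether the separation is particular to the members was not tested. With arrays as recorded, pairs of the same strain gave -0.72 to 0.09 and pairs of different strains -0.72 to 0.54. By the value table, pairs of the same strain gave -0.72 to 0.54 and pairs of different strains -0.72 to 0.41. These are correlations across genes, which are not independent replicates, and deviations from a shared mean pull the pairs toward negative values.

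Some members were neighbours in the genome. In the RefSeq gene order, 3 pairs of members were adjacent, namely *cyp-34A8* and *cyp-34A9*, *cdr-6* and *cdr-2*, and F35E8.6 and F35E8.7. With at most 10 genes between them there were 11 pairs, among them *comt-4* and *comt-5* with 1 gene between, *cdr-4* and *cdr-6* with 2, and *cyp-14A1* and *cyp-14A4* with 3. Neighbours did not always have like values. *cyp-34A8* had a restored mean of 1.77 and an *age-1(mg44)* mean of 2.58, and *cyp-34A9* had 0.01 and 1.18. Near-identical copies could share signal on the array, and probe sequences were not used here. Of 82 members with a place in the order, 17 were next to a raised unnamed gene, as were 348 of 1352 other raised unnamed genes.

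From a list of 32 textbook insulin pathway targets and stress genes, 30 were on the array and 3 were members, *cdr-2*, *clec-13* and *lipl-4*. Limma called 16 of the 30 raised in *age-1(mg44)* over wildtype, 3 members and 13 others, against 11.5% of all genes. It called 0 lower, with 0 lower also before adjustment. The list was chosen with earlier results of these data known, so its counts are a description. The 16 became 8 without *age-1(mg44)* replicate 1 and 3 without *age-1(mg44)* replicate 2. The median difference over the 30 was 2.3. Among the 27 that were not members, the superoxide dismutase *sod-3* stood 4.48 above wildtype in *age-1(mg44)* on the log2 scale (adjusted p = 0.0019 in limma) and differed by -0.01 between the restored arrays and *age-1(mg44)*.

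Limma called none of the 30 lower on the restored arrays than in *age-1(mg44)*, against 0.0257% of all genes. Before adjustment 8 passed, against 4.27% of all genes, and 27 lay below 0. The t-test of the methods called 0 after adjustment. With arrays by file name limma called 1, against 0.124% of all genes. The 27 other genes had a median of -0.80 for restored minus *age-1(mg44)*. The small heat shock genes *hsp-16.1*, *hsp-16.2* and *hsp-16.48* read -2.88, -2.98 and -2.78, none of them called. Their rise rests on *age-1(mg44)* replicate 2, where their loess log ratios were 4.77, 4.53 and 5.35, against 0.49, 0.90 and -0.37 on *age-1(mg44)* replicate 1. The P450 gene *cyp-35B1* read -2.71 and was not called (adjusted p = 0.42 in limma). The 3 members read -1.62 for *cdr-2*, -2.11 for *clec-13* and -1.69 for *lipl-4*, and none of them was called with arrays as recorded.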

How the data were processed

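Late L4 or young adult hermaphrodites of 3 strains were each compared with wildtype on 2-colour Agilent arrays. Per the file headers, the authors read the spots with Agilent Feature Extraction A.7.5.1. The deposited intensity values are the mean signal, local background and processed signal of each spot, the last corrected for background and dye by that program. Deposited log10 ratios of red to green were used only to match arrays with the value table. The sources used here give no genome build for the array design. Gene order was taken from the RefSeq gene table named above, and no coordinates are given.

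M was the log2 ratio of processed green to red signal less the array median, and spots of a probe were averaged. For tests, signals were corrected by normexp (offset 50) and loess in limma 3.58.1 (R 4.3.3), outlier spots were left out, and the brightest probe stood for each of 19441 genes. One model (lmFit, eBayes) held all 8 arrays with Benjamini-Hochberg adjustment over all genes. The fit was tested on simulated data. Between 86.1% and 92.8% of spots were well above background, and the number of arrays limits the precision.

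The members and gene lists were chosen with earlier results of these data known. Named are the 10 members highest in *age-1(mg44)*, the 10 with the widest distance, the 5 with the widest CY262 minus CY251 difference, those at the thresholds, neighbours and members with a symbol or known function. Members are described by counts, without set tests. Protein and promoter sequences were not used. Alternatives were the array assignment, replicate number as a block, background correction, normalization, the filter on dim probes, the test, and leaving out each array.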

Additional observations from a re-analysis of the deposited data

How the results depend on the processing

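The rule kept 50 members with a distance of 0.5, and between 88 and 566 when 1 array was left out, with 566 without *age-1(mg44)* replicate 1 and 219 without *age-1(mg44)* replicate 2, where fewer arrays had to pass. On loess log ratios it kept 64 genes, 50 of them among the 86. Other settings of the rule kept the count within 1.5 times of 86. Over all genes, CY262 minus CY251 gave 0 calls in limma with arrays as recorded, 29 with arrays by file name, 299 by file name with the replicate block and 282 by the t-test of the methods at an unadjusted 0.05. Members at an unadjusted p under 0.05 numbered 22 by file name, 5 by the value table, 30 and 6 with the block added to these assignments, 1 by the t-test, and 0 to 3 without 1 array. Members called as raised in *age-1(mg44)* numbered 81, and 0 by the t-test after adjustment and 34 to 79 without 1 array. Members called lower on the restored arrays numbered 5, and 17 by file name, 0 with the block, 55 by file name with the block, 23 by the value table with the block, 0 with the processed signal, 0 with median centring and 0 to 4 without 1 array. Insulin pathway targets called in *age-1(mg44)* numbered 16, and 0 by the t-test after adjustment and 3 to 18 without 1 array, and those called lower on the restored arrays numbered 1 by file name and 7 and 4 with the block added to the assignments. By file name with the block, 2 of the named members passed for CY262 minus CY251, *clec-58* at 1.23 (adjusted p = 0.0471 in limma) and R02D5.3 at -2.38 (adjusted p = 0.0229). The block with either assignment, and leaving out members with an outlier spot, were chosen after seeing the data. The t-test of *age-1(mg44)* against wildtype used only the 2 *age-1(mg44)* log ratios. It could hardly have called a gene after adjustment, so nothing is read from its counts of 0. The causes of these changes were not tested. By the recorded numbers, same-numbered CY262 and CY251 arrays deviated from their recorded strain means at r = 0.61, -0.16 and 0.23 for replicates 1 to 3. As recorded, CY262 replicates 2 and 3 correlated best with another number. Pairs that share a number by the value table gave r = 0.61, 0.41 and 0.49 for replicates 1 to 3. Each of these was the highest r of its CY262 array as recorded. What arrays of a number share was not tested. The median of the members for CY262 minus CY251 was -0.01 and ran from -0.09 to 0.06 over the alternatives. Signal over background limits the 18 members whose wildtype signal was not well above background on all 8 arrays.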
